A study of Mus musculus with 2 samples.

Results

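The genes described here encode growth factors of the FGF, PDGF, VEGF and EGF families with their receptors, together with Hgf and Met, Kitl and Kit, and the angiopoietins Angpt1 and Angpt2. They were taken by gene name from the gene spots of the array, from a list drawn up with earlier results of these data known. The rule found 59 genes, 39 of them for ligands, 16 for receptors and 4 for FGF-like proteins that stay inside the cell, out of 19505 genes that could be named on the array. They were read by 120 probes, 16 of which were printed 10 times. Fgf4 and Nrg2 were not found among the gene names, and the VEGF ligand Figf, now called Vegfd, is given here under its name on the array.

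Growth factors of these families are mostly secreted or shed proteins that bind receptor tyrosine kinases on the cell surface. The bound receptors pair, phosphorylate each other and signal through adaptor proteins to the Ras-ERK and phosphatidylinositol 3-kinase pathways, and some of the genes switched on in turn, such as the Sprouty genes, damp the signal. In brown fat, VEGF ligands maintain the dense capillary bed, PDGF receptors mark the stromal precursors of adipocytes, FGF21 acts on adipocytes through its coreceptor beta-klotho, and Nrg4 is a factor released by brown adipocytes.

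RNA came from mice on the C57BL/6N background that lacked PKGI (KO), the cGMP-dependent protein kinase type I encoded by Prkg1, or from wild type littermates (WT). One array, here the BAT array, compared untreated brown adipose tissue of a KO mouse (Cy5) and a WT mouse (Cy3). The other, here the adipocyte array, compared cultures differentiated in vitro from brown fat preadipocytes of a KO mouse (Cy3) and a WT mouse (Cy5). Age, sex and the design of the deleted allele were not given in the sources used here. The 4 RNA samples were hybridised on 2 arrays, 1 per comparison, so there was no spread between replicates and no test, and no dye swap to tell a gene's dye bias apart from the genotype. Every value below describes these RNA samples. The error that can be given is that between spots of 1 probe on an array and that between probes of a gene. The pooled SD between spots was 0.11 (log2) for the tissue and 0.10 for the cultures. Between probes of a growth factor gene the median SD was larger, 0.28 and 0.16. Of the growth factor genes with several kept probes (defined below), 11 of 21 in the tissue and 2 of 20 in the cultures had probes of both signs.

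Signals are normalised log2 intensities of each RNA, and a log2 ratio is KO over WT, so that 1 is 2-fold higher and -1 is 2-fold lower in KO. A probe was kept where it was well above background in at least 1 RNA. Levels are compared only within a probe or the same set of probes. The mean of Prkg1 itself over its kept probes was lower in KO in both comparisons, with log2 ratios of -0.84 in the tissue and -1.03 in the cultures. Its kept probes did not all go that way, with -1.29, -1.22 and 0.01 in the tissue and -0.94, -2.31 and 0.17 in the cultures. The last probe in each series was not above background in WT. Checked against the tissue label, Ucp1, the uncoupling protein of brown fat, read 15.63 in KO and 17.47 in WT on the BAT array. On the adipocyte array all 10 mature adipocyte markers were at least 2-fold lower in KO, with a summed log2 signal of 14.05 in KO and 17.90 in WT, and Ucp1 stood at 7.20 in KO and 10.98 in WT. Adipocyte marker signal was thus lower in the KO culture beside every growth factor value from that array, and its part in those values was not tested. Of 12 macrophage markers, 10 were also at least 2-fold lower in the KO culture, and of 9 kept smooth muscle and pericyte markers 5 were at least 2-fold higher. In the tissue 11 of 12 skeletal muscle markers were at least 2-fold lower in KO, with a summed log2 signal of 15.83 in KO and 18.32 in WT. In all 4 RNA samples, fewer cells of a type and less RNA per cell cannot be told apart.

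In the tissue the growth factor genes differed little between KO and WT, and so did most genes of the array, of which 3.24% were past 2-fold either way. Of the 59 genes, 49 were kept on the BAT array, 41 of them measured in both RNA samples and 8 in only 1 of them. None was at least 2-fold higher in KO, where 0.800% of all kept genes were, and 1 was at least 2-fold lower, Areg, which is 2.04% of those kept beside 2.44% of all genes. The median log2 ratio of the kept growth factor genes was -0.01 beside 0.00 for all 15616 genes, and 44 of the 49 lay within 1.5-fold. At least 1.5-fold higher were 2 (3.67% of all genes) and lower 3 (7.11% of all genes). In the cultures the differences were larger and more often upward. There 42 genes were kept, 41 of them measured in both RNA samples, and 6 were at least 2-fold higher in KO, namely Fgf18, Fgf7, Flt1, Pdgfd, Hbegf and Pgf. These are 14.3% of the kept growth factor genes beside 2.49% of all genes. A further 2, Erbb3 and Fgf10, were at least 2-fold lower, 4.76% beside 4.18% of all genes. At 1.5-fold, 10 were higher (8.46% of all genes) and 8 lower (9.58% of all genes). The median was 0.03 beside 0.00 for all 15113 genes, so the kept growth factor genes were centred near 0. The split depended on the intensity normalisation. Without loess the cultures gave 2 genes higher and 7 lower, where 1.28% of all genes were higher and 8.24% lower. The tissue then gave 2 higher and 1 lower, beside 4.30% and 2.62% of all genes. The median of all genes moved to -0.26 in the cultures and 0.25 in the tissue in that setting. With the scanner software's own ratios, without normexp correction, the tissue gave 6 higher and 5 lower, beside 8.98% and 6.08% of all genes. The cultures gave 7 and 5 with those ratios, beside 5.80% and 6.32% of all genes.

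**Figure D1:**
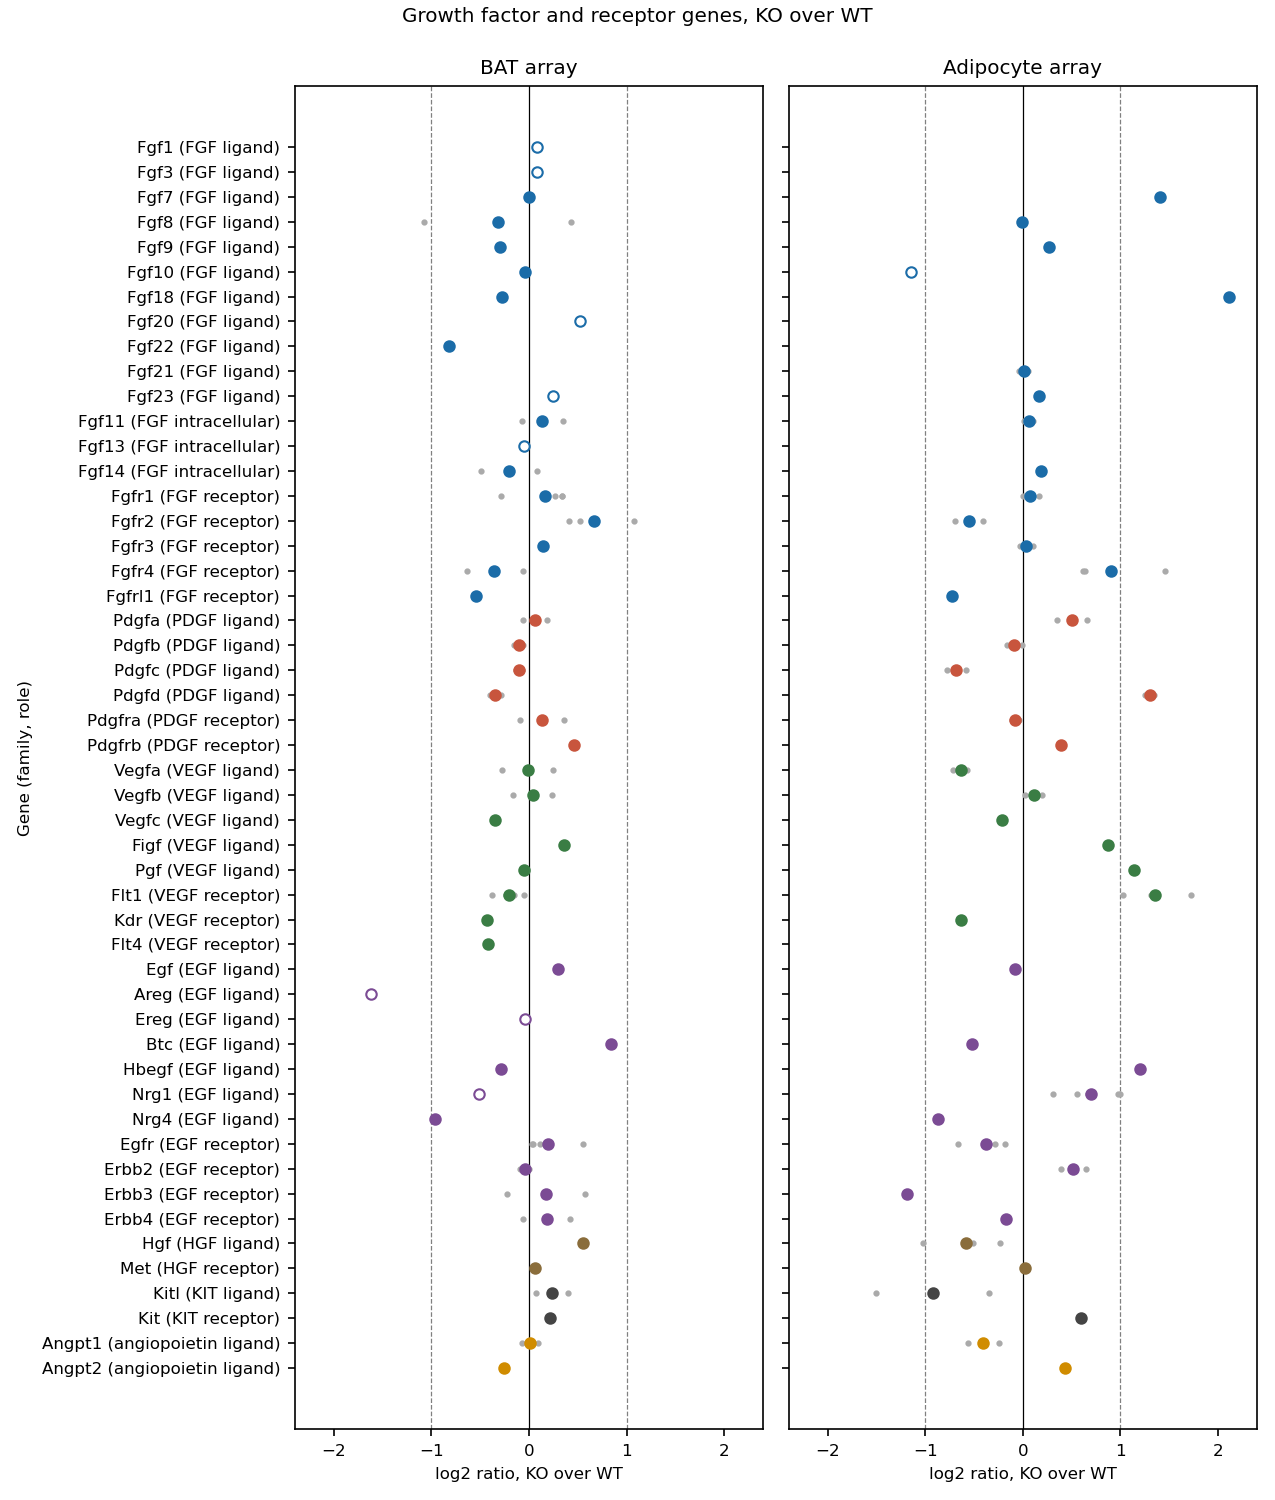
Log2 ratio of KO over WT (x axis) of the growth factor and receptor genes kept on at least 1 array (y axis, by family and role), on the BAT array (left) and the adipocyte array (right). Large points are genes, coloured by family, and open ones were well above background in only 1 of the RNA samples on every kept probe. Small grey points are single probes where a gene has several, and dashed lines mark 2-fold. Only Areg lies past a dashed line on the left, and 8 genes do on the right.

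None of the growth factor genes was at least 2-fold different on both arrays, where 0 of 14273 genes kept on both were higher on each and 0.231% were lower on each. Among the 41 growth factor genes kept on both, 19 (46.3%) had log2 ratios of the same sign, beside 49.8% of all genes. Nrg4 was the only one of them at least 1.5-fold different in the same direction, lower in KO on each, as were 1.24% of all genes. A set of 9 genes was not above background in any of the 4 RNA samples: the FGF ligands Fgf2, Fgf5, Fgf6, Fgf15, Fgf16 and Fgf17, the intracellular Fgf12, and the EGF family ligands Tgfa and Nrg3. Their fold change is unknown here. Another 8 were kept in the tissue only (Fgf1, Fgf3, Fgf13, Fgf20, Fgf22, Flt4, Areg and Ereg) and 1, Fgf21, in the cultures only.

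The FGF ligands held the highest ratio in the cultures, that of Fgf18, and one of the lowest, that of Fgf10. Fgf18, a ligand known from bone, cartilage and lung development, had signals of 8.07 in the WT culture and 10.19 in the KO culture, a log2 ratio of 2.12. In the tissue its signals were 9.55 in WT and 9.27 in KO, a log2 ratio of -0.28. The KO culture was thus the higher one and the KO tissue slightly the lower one. Fgf7, also called keratinocyte growth factor, a ligand that stromal cells make for the epithelial form of Fgfr2, had 10.56 in the WT culture and 11.96 in the KO culture, a log2 ratio of 1.40. In the tissue it was dim, 6.88 in WT and 6.87 in KO, with no difference between them. Each of these 2 genes has 1 probe, so no second probe bears on the value. Over the alternative settings the culture ratio of Fgf18 ran from 1.72 to 2.25 and that of Fgf7 from 0.99 to 1.47.

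Fgf10, a ligand for the same epithelial form of Fgfr2 that is known to promote fat development, went the other way in the cultures. Its signal was 7.37 in WT and 6.23 in KO, where the probe was not above background (46.8 scanner units over a local background of 43.9, against 221.7 over 53.9 in WT). The log2 ratio of -1.15 had an SD of 0.11 over 9 spots of its 1 probe, whose values lay between -1.27 and -0.999, and the KO level was at least 2.12-fold lower. In the tissue the same probe read 8.18 in WT and 8.14 in KO, a log2 ratio of -0.04 with an SD of 0.16 over 9 spots. The spots of the 2 arrays did not overlap for this gene, nor for any other growth factor probe with repeated spots kept on both arrays. The other FGF ligands kept in the cultures, Fgf8, Fgf9, Fgf21 and Fgf23, lay between -0.01 and 0.27. For the circulating metabolic hormone Fgf21 both probes read near 0 in the cultures, 0.05 and -0.04.

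In the tissue the FGF ligands ran from -0.82 to 0.52. The lowest was Fgf22, with 7.20 in WT and 6.38 in KO on 1 kept probe, and its ratio moved between -2.30 and -0.04 over the settings. The probes of Fgf8 disagreed. Its probe with repeated spots read 0.43 with an SD of 0.11 over 9 spots, its other probe read -1.08 and was not above background in KO, and the mean of -0.32 describes neither. The intracellular members Fgf11, Fgf13 and Fgf14, which act on sodium channels and not on receptors, lay between -0.20 and 0.14 in the tissue.

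Among the FGF receptors, the largest ratios were those of Fgfr4 in the cultures and Fgfr2 in the tissue. Fgfr4, a receptor known from bile acid control in liver, was higher in the KO culture on each of its 3 probes. Their signals were 9.11, 7.45 and 7.99 in WT and 10.56, 8.06 and 8.63 in KO, giving log2 ratios of 1.45, 0.61 and 0.64 and a mean of 0.90. In the tissue the same probes gave -0.64, -0.37 and -0.07, a mean of -0.36. Fgfr2, the receptor of Fgf7 and Fgf10 in its epithelial form, was instead higher in the KO tissue. There its 3 probes read 7.54, 6.62 and 9.87 in WT and 8.06, 7.04 and 10.94 in KO, with log2 ratios of 0.52, 0.41 and 1.08 and a mean of 0.67. In the cultures its 2 kept probes gave -0.40 and -0.69. All 3 tissue ratios of Fgfr2 were thus above 0 and both culture ratios below it, and the signs of both gene means held in every setting. The tissue mean ran from 0.20 to 1.46 over the settings and was past 2-fold in 3 of 10. The decoy receptor Fgfrl1, which lacks the kinase, was lower in KO on both arrays, with 11.59 in WT and 11.05 in KO tissue (-0.54) and 10.76 in WT and 10.03 in KO culture (-0.73), but its tissue ratio was near 0 without loess. The means of Fgfr1 and Fgfr3 lay between 0.04 and 0.16 on both arrays, but the 4 tissue probes of Fgfr1 ran from -0.29 to 0.34.

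**Figure D2:**
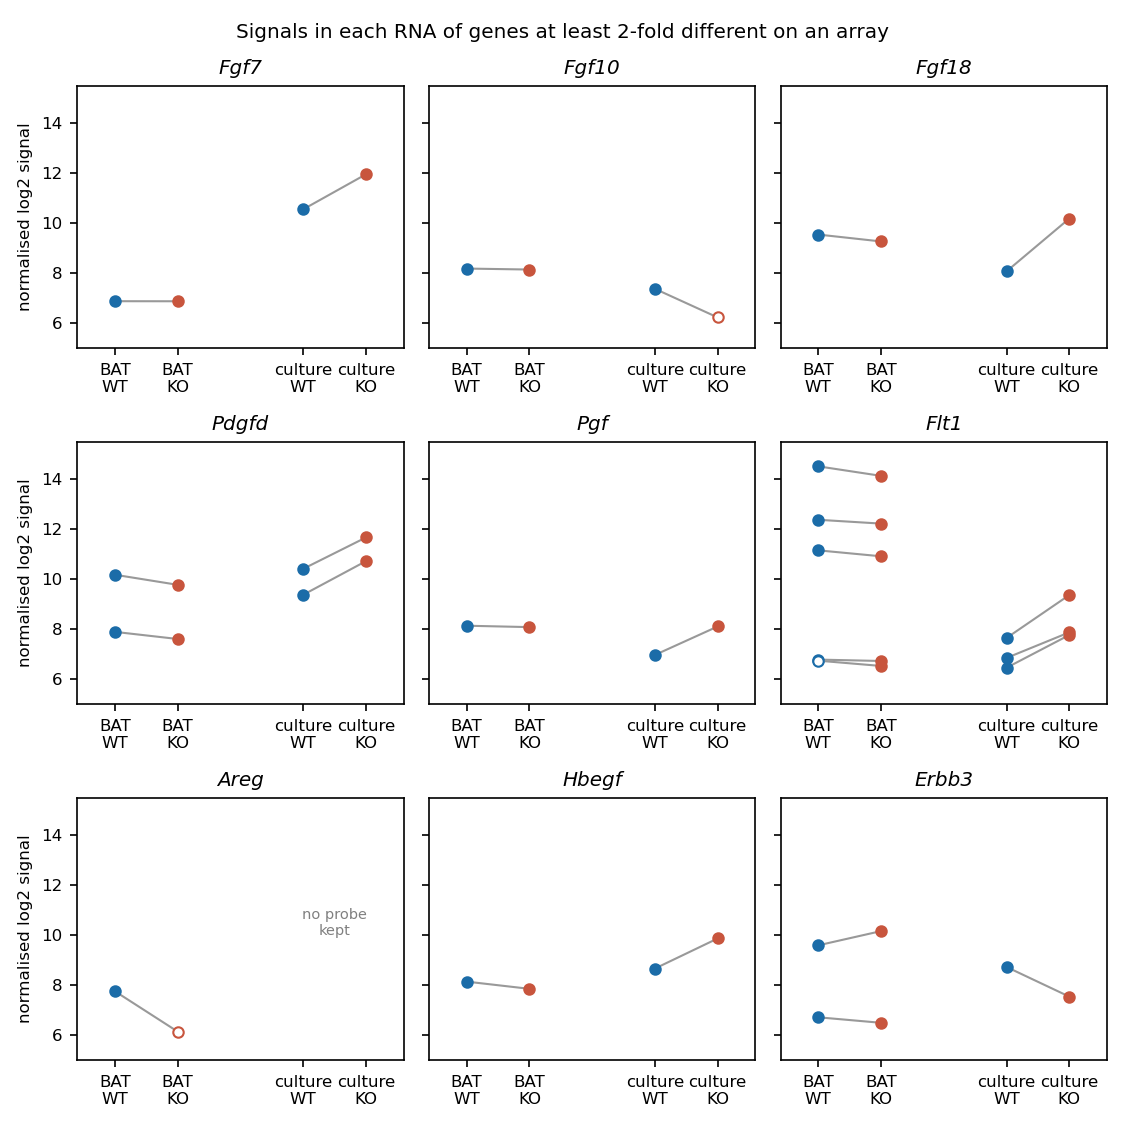
Normalised log2 signal (y axis) of each kept probe in the WT and KO RNA of the BAT array and of the adipocyte array (x axis, "culture") for the 9 genes at least 2-fold different on either array. Lines join the WT and KO values of a probe, blue points are WT, red points are KO, and open points were not well above background. Flt1 has 5 kept probes in the tissue, all slightly lower in KO, and 3 in culture, all higher in KO.

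PDGF ligands act on mesenchymal cells, which carry the receptors Pdgfra and Pdgfrb. In the cultures Pdgfd, a ligand of the beta receptor, was higher in KO on both probes, which read 9.38 and 10.42 in WT and 10.73 and 11.68 in KO. The log2 ratios were 1.35 and 1.26 and the mean 1.30. In the tissue the same probes read 7.89 and 10.18 in WT and 7.61 and 9.78 in KO, ratios of -0.29 and -0.40. Both probes therefore gave the same picture on each array, above 0 in culture and below 0 in tissue. Pdgfc, a ligand of the alpha receptor, was lower in the KO culture on both kept probes, 10.75 and 10.49 in WT and 9.97 and 9.91 in KO, ratios of -0.78 and -0.58, and its tissue ratios were -0.13 and -0.07. Pdgfa, the classical ligand of the alpha receptor, had a mean ratio of 0.51 in the cultures, from signals of 9.99 in WT and 10.50 in KO, and of 0.06 in the tissue, from 10.78 and 10.84. Pdgfb was at -0.09 and -0.11.

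Of the receptors, Pdgfrb, which marks pericytes and other mural cells, had signals of 13.27 in WT and 13.73 in KO tissue, a ratio of 0.46, and of 12.23 in WT and 12.62 in KO culture, a ratio of 0.39. Without loess these ratios were 1.08 in the tissue, past 2-fold, and -0.01 in the cultures. Beside it, the smooth muscle and pericyte markers had a median ratio of -0.53 in the tissue, with a summed log2 signal of 14.58 in KO and 15.14 in WT, and of 1.24 in the cultures, with 17.28 in KO and 15.36 in WT. Their part in the PDGF values was not tested. Pdgfra, which marks adipocyte precursors, read 0.36 in the tissue on its probe with repeated spots (SD 0.05 over 9 spots). Its dim second probe, not above background in WT tissue, gave -0.10, and the mean of 0.13 describes neither. In the cultures the mean ratio of Pdgfra was -0.08. The precursor and fibroblast markers had medians of -0.04 in the tissue and 0.12 in the cultures.

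The VEGF family divided in the cultures. Placental growth factor Pgf, Figf and the receptor Flt1 were higher in KO, while Vegfa and Kdr, the main angiogenic ligand and its main signalling receptor, were lower. Flt1, the VEGF receptor with high affinity and weak kinase activity, read 7.65, 6.45 and 6.85 in WT and 9.37, 7.77 and 7.87 in KO on its 3 kept probes. These gave log2 ratios of 1.72, 1.31 and 1.03 and a mean of 1.35, and the other 2 probes were not above background in either culture. Pgf, a ligand of Flt1 alone among the VEGF receptors, read 6.97 in WT and 8.11 in KO on its 1 probe, a ratio of 1.14. In the tissue Pgf read 8.14 in WT and 8.08 in KO, a ratio of -0.06. Figf, a ligand of Flt4 in lymphatic vessels, read 13.07 in WT and 13.95 in KO culture, a ratio of 0.87. That ratio stayed between 0.46 and 0.99 over the settings. In the tissue Figf read 9.75 in WT and 10.10 in KO, a ratio of 0.35. Flt1 and its ligand Pgf were thus both more than 2-fold higher in the KO culture, at low signals.

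Vegfa read 11.33, 9.56 and 12.18 in the WT culture and 10.75, 8.95 and 11.47 in the KO culture, ratios of -0.58, -0.62 and -0.71 with a mean of -0.64. The first probe's SD was 0.09 over 9 spots, and the 3 probes differed by little more than that. Kdr, on 1 kept probe of 10 spots, read 9.17 in WT and 8.54 in KO, a ratio of -0.64 with an SD of 0.07. Vegfa, Kdr and Flt1 kept their signs in every setting in the cultures. The endothelial markers Pecam1, Tie1, Robo4 and Emcn were not above background in either culture. The 8 of 12 endothelial markers that were kept had a median ratio of 0.09 and a summed log2 signal of 11.57 in KO and 11.10 in WT. Of these, 1 was at least 2-fold higher in the KO culture, at 1.43, and 0 were lower. The hypoxia regulators that control Vegfa had 0 of 8 genes past 2-fold in the cultures and a median of -0.21. The lowest 2 were the prolyl hydroxylase Egln3, with 10.30 in WT and 9.49 in KO, and Epas1, which encodes HIF-2alpha, with 7.53 and 6.92.

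In the tissue all 3 VEGF receptors had ratios below 0, although without loess that of Kdr turned to 0.23 and that of Flt1 to 0.06. Kdr read 14.35 in WT and 13.92 in KO, a ratio of -0.43 with an SD of 0.05 over 10 spots. The 5 probes of Flt1 gave ratios between -0.38 and -0.06, and Flt4, the lymphatic receptor, was at -0.42. Beside them, 0 of 12 endothelial markers were past 2-fold, their median was -0.25, and their summed log2 signal was 16.95 in KO and 17.16 in WT. The part of these markers in the receptor values was not tested. The probes of Vegfa disagreed in the tissue. They read 14.16 and 14.05 in WT and 13.89 and 14.29 in KO, ratios of -0.27 (SD 0.06 over 8 spots) and 0.24. The mean of -0.01 describes neither, and it moved to 0.64 without loess. Vegfb was at 0.04 in the tissue and 0.11 in the cultures, and Vegfc at -0.35 and -0.21.

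**Figure D3:**
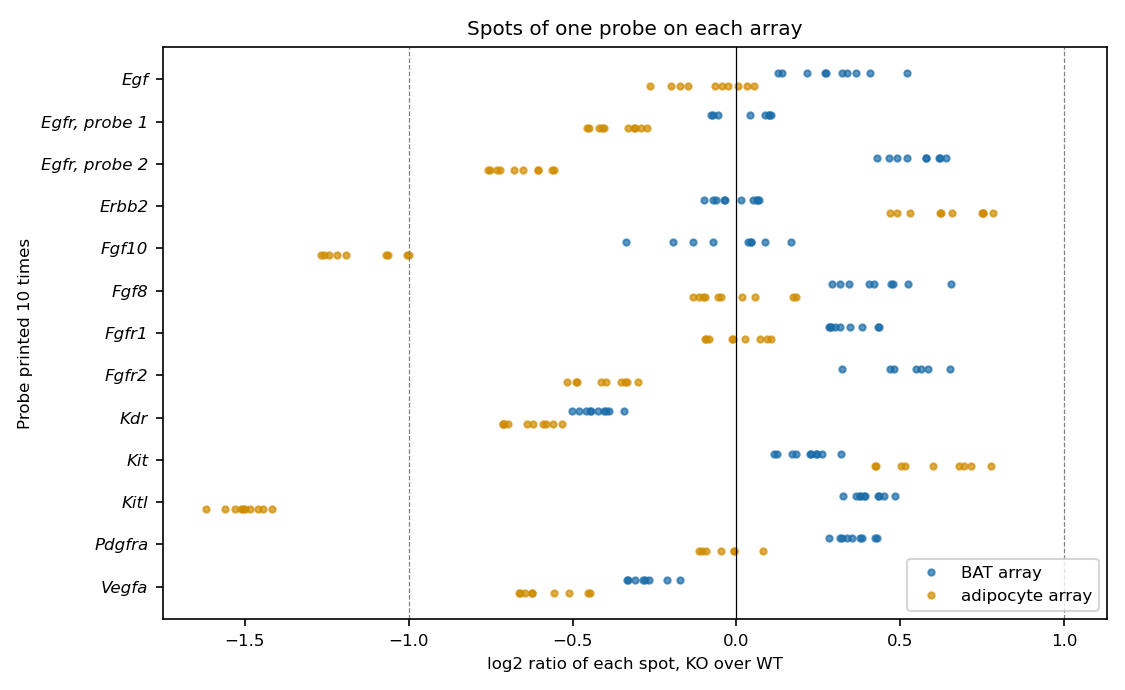
Log2 ratio of every spot (x axis, KO over WT) for the 13 growth factor and receptor probes printed 10 times that were above background in at least 1 RNA sample on both arrays (y axis), with spots of the BAT array in blue and of the adipocyte array in orange. The spread along a line is the error of spotting and scanning, with SDs from 0.05 to 0.16. For Kitl, Fgf10, Fgfr2 and the second Egfr probe the spots of both arrays lie far apart, and for Fgf10 the culture spots lie between -1.27 and -0.999.

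EGF family ligands are made as membrane proteins and shed to act on Egfr and its relatives Erbb2, Erbb3 and Erbb4. Areg, a shed ligand of Egfr that is known as a cAMP-responsive gene, had the lowest ratio in the tissue. Its signal was 7.75 in WT and 6.14 in KO, where the 1 spot was not above background (71.1 scanner units over a local background of 58.0, against 140.4 over 40.0 in WT). The log2 ratio of -1.62 corresponds to a KO level at least 3.07-fold lower. In the cultures the probe was not above background in either RNA. The value rests on 1 dim spot, and it was only -0.10 where spots with outlier signal were left in the background fit. Nrg4 had a much brighter probe, with 12.42 in WT and 11.47 in KO tissue, a ratio of -0.96. In the cultures it read 7.58 in WT and 6.72 in KO, a ratio of -0.87. The KO RNA was the lower one on both arrays. Their dyes were opposite, but they compared different RNA samples and are not a dye swap. The ratio of Nrg4 kept its sign in every setting, from -0.98 to -0.40 in the tissue. Beside Nrg4, the brown adipocyte markers at least 2-fold different in the tissue were 4 of 8 lower and 1 higher, and in the cultures 6 of 8 lower. Their part in the Nrg4 values was not tested.

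The stretch of 250 bases before the RefSeq start (GRCm38.p6) was read for 7 of the 9 genes at least 2-fold different, Areg, Fgf7, Fgf10, Fgf18, Pdgfd, Pgf and Flt1. The promoters of Erbb3 and Hbegf were not used here. Each was searched on both strands for the cAMP response element TGACGTCA, the hypoxia response core ACGTG, the AP-1 site TGANTCA, the TEAD site GGAATG and the CArG box. The first is found in 1.55% of 32851 mouse promoters of this length, the others in 16.6%, 6.75%, 12.6% and 1.47%. The promoters of Areg (chr5:91139349-91139598, plus strand) and Flt1 (chr5:147726012-147726261, minus strand) each held 1 cAMP response element and none of the other motifs, and the rest held no match. Both are shown because they are the lowest tissue ratio and the only receptor more than 2-fold higher in culture, 5′ to 3′ on the gene's strand, with the element in capitals.
Areg: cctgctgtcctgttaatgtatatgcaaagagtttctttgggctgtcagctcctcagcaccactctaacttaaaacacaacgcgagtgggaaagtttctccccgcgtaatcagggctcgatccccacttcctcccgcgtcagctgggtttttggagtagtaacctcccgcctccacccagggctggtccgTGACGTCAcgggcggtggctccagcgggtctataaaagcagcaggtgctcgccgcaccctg
Flt1: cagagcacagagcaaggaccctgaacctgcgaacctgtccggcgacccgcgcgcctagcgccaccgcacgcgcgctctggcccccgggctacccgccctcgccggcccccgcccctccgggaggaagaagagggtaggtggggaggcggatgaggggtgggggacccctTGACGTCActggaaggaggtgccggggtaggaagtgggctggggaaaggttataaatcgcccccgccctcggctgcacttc
The match is a description of the sequence only, and says nothing of which factor binds there in these samples. Of the 2 genes with the element, Areg was at -1.62 and Flt1 at -0.21 in the tissue. In the cultures Flt1 was at 1.35 and Areg was not above background.

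Hbegf, a heparin-binding ligand of Egfr and Erbb4, was higher in the KO culture, with 8.67 in WT and 9.87 in KO, a ratio of 1.21 on 1 probe. In the tissue it read 8.14 in WT and 7.85 in KO, a ratio of -0.29. Nrg1, a ligand of Erbb3 and Erbb4, was higher in the KO culture on all 5 probes, with ratios between 0.31 and 1.00 and a mean of 0.70. Its mean signal over the probes was 7.73 in WT and 8.43 in KO. In the tissue 1 Nrg1 probe was kept, at -0.51, and it was not above background in KO. Btc, a further Egfr ligand, went in opposite directions, with 8.16 in WT and 9.00 in KO tissue (0.84) and 7.13 in WT and 6.60 in KO culture (-0.52), on 1 probe. Its tissue ratio fell to 0.12 with outlier spots left in. Egf was at 0.30 in the tissue and -0.08 in the cultures.

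Of the receptors of these ligands, Egfr had ratios between -0.66 and -0.18 on 5 kept probes in the cultures, all below 0, and between 0.03 and 0.55 in the tissue, all above 0. The probe at both extremes was the same, with signals of 12.02 in WT and 11.36 in KO culture and 10.06 in WT and 10.61 in KO tissue, and its spot SD was 0.08 on each array. Erbb3, a receptor without strong kinase activity that pairs with Erbb2, was at least 2-fold lower in the KO culture on 1 kept probe of 5, with 8.73 in WT and 7.54 in KO, a ratio of -1.19. With all 5 probes averaged it was -0.17. In the tissue its 2 kept probes gave 0.57 and -0.22. The Schwann cell and nerve markers, cells in which Erbb3 is known to act, had a median of -0.32 in the cultures with 0 of 8 kept genes at least 2-fold lower and 1 higher (Uchl1, at 1.26), and their part was not tested. Erbb2 was at 0.52 in the cultures and -0.05 in the tissue. Erbb4 read 10.68 in WT and 10.50 in KO culture (-0.18) on 1 kept probe. The same probe read 11.14 in WT and 11.57 in KO tissue (0.42). A dim second probe, not above background in WT tissue, gave -0.06 there, and the tissue mean was 0.18.

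Hgf, the scatter factor made by mesenchymal cells, was higher in the KO tissue and lower in the KO culture. Its receptor Met was near 0 in both on the 1 probe with that gene name. Hgf read 6.98 in WT and 7.54 in KO tissue on 1 kept probe, a ratio of 0.56 that ran from 0.04 with outlier spots left in to 1.57 with the authors' deposited table. In the cultures its 4 probes gave -0.51, -1.02, -0.55 and -0.23, from mean signals of 7.42 in WT and 6.85 in KO. Met was at 0.06 in the tissue (7.25 in WT, 7.31 in KO) and 0.02 in the cultures (7.28 and 7.30). With probes found through RefSeq names it was at -0.02 in the tissue and 0.41 in the cultures.

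Kitl, the stem cell factor, also differed in sign between the arrays. Its probe with 10 spots read 11.71 in WT and 10.20 in KO culture, a ratio of -1.50 with an SD of 0.06, and 11.26 in WT and 11.66 in KO tissue, a ratio of 0.40 with an SD of 0.05. The second probe was dim and gave -0.34 and 0.07, so the gene means were -0.92 and 0.24. Its receptor Kit, which marks mast cells, read 8.32 in WT and 8.91 in KO culture, a ratio of 0.59 with an SD of 0.13 over 9 spots, and 9.69 in WT and 9.90 in KO tissue, a ratio of 0.21. Beside Kit, the mast cell markers in the tissue had a median of 0.41 with all 9 ratios between 0.07 and 0.84, and a summed log2 signal of 15.02 in KO and 14.49 in WT. In the cultures 3 of the 9 were not above background, and the median was 0.17. Their part in the Kit values was not tested. Angpt2, which destabilises vessels against Angpt1 at the shared receptor Tek, read 13.02 in WT and 13.46 in KO culture (0.44) and 11.57 in WT and 11.31 in KO tissue (-0.26). Angpt1 was at -0.40 and 0.01, and Tek at 0.02 and 0.04.

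**Figure D4:**
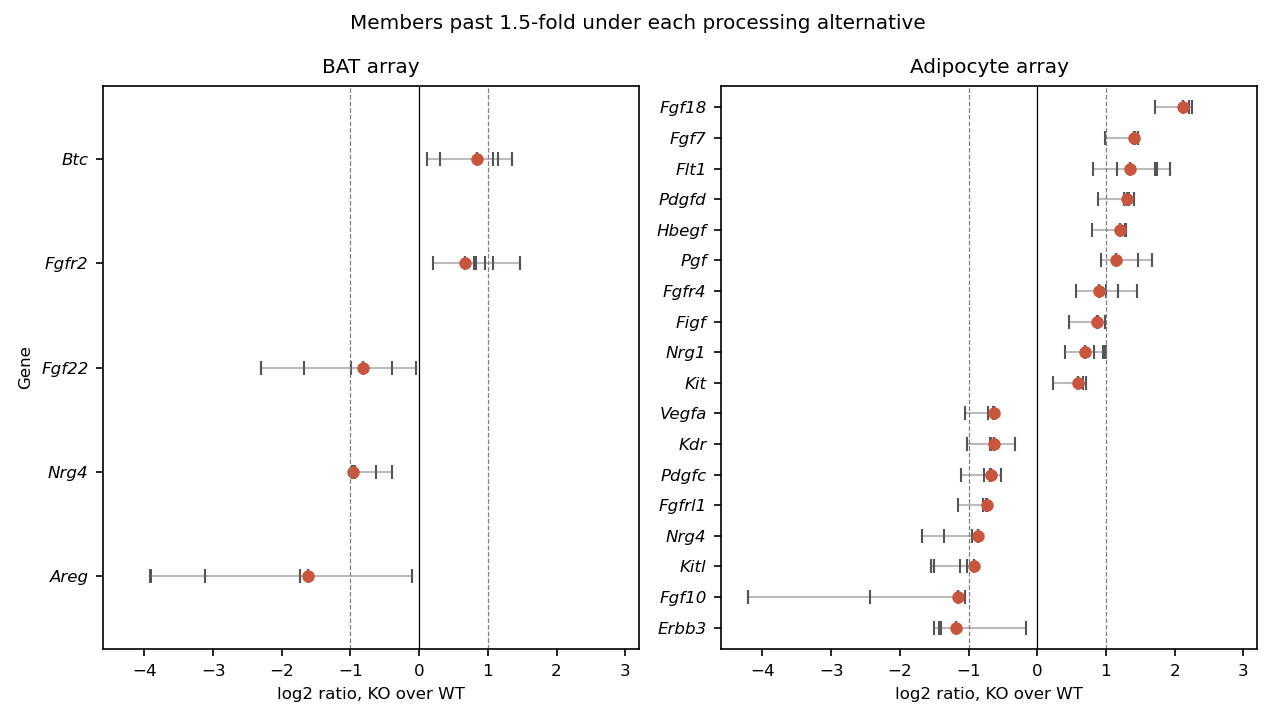
Log2 ratio of KO over WT (x axis) of the genes at least 1.5-fold different (y axis) on the BAT array (left) and the adipocyte array (right), as reported (red points) and under each other processing setting (ticks), with the line spanning their range. Dashed lines mark 2-fold. Areg runs from -3.92 to -0.10, Fgf10 from -4.22 to -1.05 and Fgf18 from 1.72 to 2.25.

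Genes that act with these ligands and receptors were read from 5 lists. Of the coreceptors and matrix partners, 16 of 17 on the array were kept in the tissue and 14 in the cultures, with medians of -0.20 and 0.11. In the tissue 0 were at least 2-fold higher and 1 lower, the heparan sulphate proteoglycan Gpc1, which binds FGF and VEGF ligands, with 11.27 in WT and 10.18 in KO. Its ratio of -1.09 was -0.48 with outlier spots left in the fits. In the cultures 0 were higher and 1 lower, Klb, which encodes beta-klotho. Klb had a mean signal of 9.84 in WT and 7.32 in KO, with ratios of -4.09 and -0.95 on its 2 probes, beside the 10 of 10 mature adipocyte markers that were lower there. The direction of both Klb probes was the same, while Fgf21, the hormone it serves, was at 0.01.

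Among adaptors and proximal signalling genes, all 18 were kept in the tissue with a median of 0.00 and 0 past 2-fold. The 2 largest ratios were those of Frs3 (0.55) and Shc2 (0.43), but the 2 probes of Shc2 disagreed, at -0.20 and 1.06. In the cultures 17 genes of this list were kept with a median of -0.14. There 0 were higher and 1 lower, the phospholipase Plcg2 at -1.04. The feedback inhibitors and ERK targets had 0 of 18 past 2-fold in the tissue and a median of 0.07, with Spry3 at -0.82 and Cblb at 0.55. Spry3 was not above background in KO tissue. Over the settings its ratio ran from -2.55 to -0.04, and that of Cblb from 0.06 to 0.82. In the cultures 19 genes of this list were kept with a median of 0.20. There 1 was lower, Lrig1, a membrane inhibitor of EGF receptors, with 11.41 in WT and 10.40 in KO. The Sprouty genes differed in direction there, with Spry1 at 0.91 (10.73 in WT, 11.64 in KO) and Spry4 at -0.90 (7.62 in WT, 6.73 in KO). The proteases and regulators that shed or process the ligands had 0 genes past 2-fold on either array, 17 kept in the tissue and 16 in the cultures, with Rhbdf2 at 0.62 in the tissue and Plau at 0.59 in the cultures. The hypoxia list had 0 of 8 past 2-fold in the tissue, with Egln3 at 0.54 and Egln2 at 0.36. As background, 3.24% of all genes were past 2-fold either way in the tissue and 6.67% in the cultures.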

How the data were processed

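Growth factor and receptor genes were measured on 2 two-colour Agilent mouse arrays. RNA was extracted with Trizol and amplified and labelled with an Agilent linear amplification kit, per the labels. The deposited scanner files give, for each spot and dye, an intensity (mean signal) and a local background, and the log10 ratio of both dyes, all from Agilent Feature Extraction 9.5.1.1, protocol GE2-v5_95_Feb07, per the file headers. The authors' deposited value table also holds that log10 ratio. No probe coordinates are printed, since their build was not given in the sources used here.

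From the intensities, spots with outlier signal or background (1215 gene spots of the BAT array, 203 of the adipocyte array, of 43379 each) were dropped, background was corrected with limma 3.58.1 in R 4.3.3 (normexp, offset 50), and each array was normalised by loess with control spots at weight 0. Signals of each RNA were taken after A-quantile scaling. Spots of a probe were averaged, and a gene is the mean of its probes well above background in at least 1 RNA. Genes are counted at 2-fold. A gene above background in only 1 RNA on all kept probes has a bound ("at least N-fold"), from the bright RNA to whichever is higher, its own dim value or the dimmest probe called well above background in that RNA. Of the gene spots, 74.1% (KO) and 63.1% (WT) were well above background on the BAT array and 68.1% and 70.1% on the adipocyte array, and the number of arrays limits the precision. For counts over all genes, probes were named through RefSeq (GRCm38.p6) by accession (22951), symbol (6659) or synonym (3109), and 8455 had no match. The background correction and loess were tested on simulated data without outlier spots, so the dropping of outlier spots was not tested. There were 10 alternative settings.

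Members at least 2-fold different on an array are named with values. So are those past 1.5-fold with 1 sign on several probes or on both arrays. The same holds for the brightest ligand and receptor of each family. Of each pathway list the genes past 2-fold are named, or else the 2 largest. Rules, members and lists were chosen with earlier results of these data known. Fgf8, Fgf22, Btc, Egfr, Erbb2, Hgf, Spry1 and Spry4 and other members are described beyond that rule.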

Additional observations from a re-analysis of the deposited data

How the results depend on the processing

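No paired analysis was possible because there was 1 array per comparison, with 1 KO and 1 WT RNA. There was no replicate to leave out, dye bias was not measured, and dim genes such as Areg and Fgf10 are limited by signal over background. Of the kept genes, 26 of 49 in the tissue and 32 of 42 in the cultures kept 1 sign in every setting that gave a value, among them all 9 past 2-fold. Only Fgf18 and Fgf10 were past 2-fold in every setting that gave them a value.

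Counts of growth factor genes at least 2-fold higher and lower are given with the shares of all genes in brackets, since these moved too. The tissue counts of 0 and 1 (0.800% and 2.44%) became 2 and 1 without loess (4.30% and 2.62%) and 2 and 3 with a normexp offset of 0 (2.47% and 5.35%). They were 6 and 5 with the Feature Extraction log ratio (8.98% and 6.08%) and with the deposited value table (8.95% and 6.08%). They were 0 and 0 with outlier spots left in the fits (0.243% and 0.455%) and with probes above background in both RNA samples only (0.883% and 2.89%), 1 and 1 with the brightest probe (1.06% and 2.84%), and 2 and 3 at 1.5-fold (3.67% and 7.11%). The culture counts of 6 and 2 (2.49% and 4.18%) became 2 and 7 without loess (1.28% and 8.24%) and 7 and 4 with offset 0 (4.08% and 5.59%). They were 7 and 5 with the Feature Extraction log ratio (5.80% and 6.32%) and with the deposited table (5.78% and 6.31%), 5 and 1 without the brightness filter (1.73% and 3.10%), 8 and 4 with the brightest probe (2.98% and 5.01%), and 10 and 8 at 1.5-fold (8.46% and 9.58%). Without loess the medians were 0.14 in the tissue and -0.18 in the cultures. In the cultures Fgf7 (0.99), Pdgfd (0.88), Hbegf (0.80) and Pgf (0.93) were then under 2-fold, and without the brightness filter Flt1 (0.82) and Erbb3 (-0.17) were. The cause was not tested.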
